A study of Mus musculus with 6 samples.

Results

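The gastrokine genes of the mouse, Gkn1, Gkn2 and Gkn3, were examined on arrays of encapsulated mouse embryonic stem cell (mESC) aggregates taken before and after pre-differentiation towards the heart lineage. They are 3 of the 30176 genes with a probe set of their own on these arrays, and they were chosen by large increases of their log2 signal from the before to the after arrays. Their own changes are therefore given as a description with no test. Gkn1 and Gkn2 bore out the label on which they were picked, and Gkn3 did not: it had no increase and stayed below the background level on 6 of 6 arrays. Clariom D arrays, whose probes cover both coding and non-coding transcripts, were hybridised with total RNA. The group called before holds 3 arrays of R1 mESC aggregates that had grown for 7 days inside microcapsules in medium with leukaemia inhibitory factor (LIF) and Knockout serum. The group called after holds 3 arrays of such aggregates given BMP-4 and bFGF in regular DMEM for the next 3 days. The labels call each array a biological replicate of 1 cell line, and besides the 2 growth factors the groups differ in their medium and in how long they were cultured.

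Gastrokines are small secreted proteins of the gastric mucosa and carry a BRICHOS domain, a fold found in several secreted and membrane proteins that are cut from a precursor. GKN1, also called AMP-18, is made by the surface mucous cells that line the stomach, and GKN2 is made by the same cells and pairs with the trefoil factor TFF1 through a disulfide bond. Gkn3 encodes a functional protein in the mouse stomach, while its human counterpart is inactive in most people, and in mouse brain its RNA is used as a marker of arterial endothelium.

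The log2 signal of Gkn2 was 5.61, 7.57 and 9.82 in before replicates 1, 2 and 3, and 15.23, 17.29 and 18.56 in after replicates 1, 2 and 3. The groups did not overlap, and the dimmest after array lay 5.42 log2 units above the brightest before array, which is 42.7-fold. The means were 7.67 ± 2.11 before and 17.03 ± 1.68 after (SD, n = 3 each), a log2 change of 9.36 with a standard error of 1.28, or 658-fold. This change ranked 2 among the 30176 genes, after that of the fetal plasma protein gene Afp (10.86) and before that of the keratin gene Krt18 (8.29). Gkn2 was above the background level of each array already in the before group. That level, between 4.16 and 4.63 on the log2 scale, is the 95th percentile of 1716 olfactory and vomeronasal receptor genes on the same array, used because the value table gives no detection call.

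The log2 signal of Gkn1 was 5.07, 5.66 and 6.79 in before replicates 1, 2 and 3, and 11.26, 13.69 and 15.18 in after replicates 1, 2 and 3. Here too the groups were separate, with 4.47 log2 units (22.2-fold) between the nearest arrays of the 2 groups. The means were 5.84 ± 0.88 before and 13.38 ± 1.98 after (SD, n = 3 each), a log2 change of 7.54 with a standard error of 1.03, or 186-fold, and this change ranked 6. Gkn1 was also above the background level on 6 of 6 arrays, but in before replicate 1 by only 0.64. With the 99th percentile of the receptor genes as the background, that array was 0.02 below it, and the log2 change against the higher of signal and background was 7.53.

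The log2 signal of Gkn3 was 3.06, 3.31 and 3.14 in before replicates 1, 2 and 3, and 3.08, 2.91 and 3.04 in after replicates 1, 2 and 3. The groups overlapped, and all 6 values lay 1.09 to 1.49 below the background level of their array. The means were 3.17 ± 0.12 before and 3.01 ± 0.09 after (SD, n = 3 each), a log2 difference of -0.16 with a standard error of 0.12. Set against the median over all rows, -0.18, this difference was 0.02, so it has no direction that survives centring. With both groups below background no fold change is given.

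**Figure D1:**
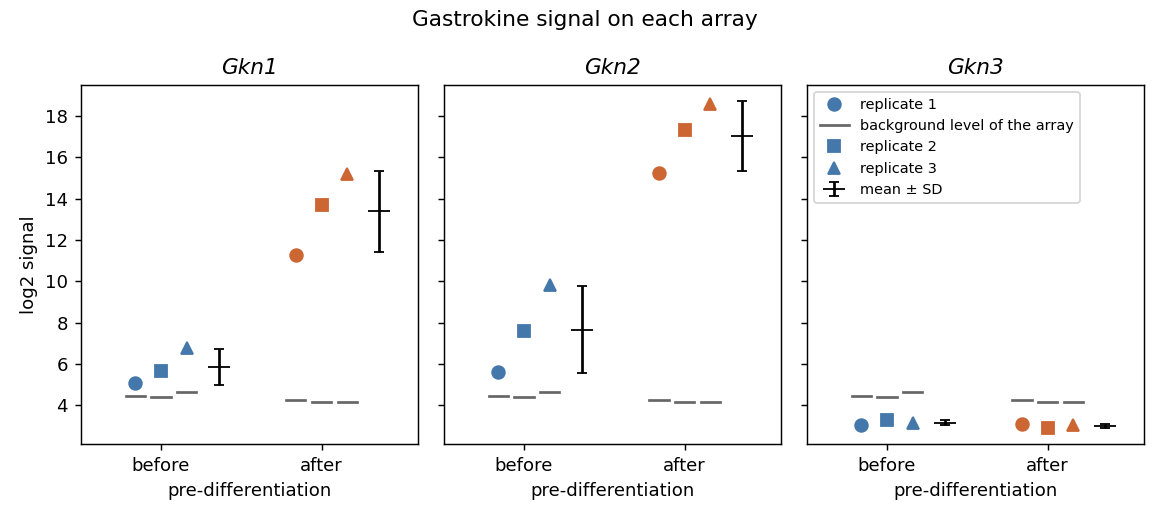
Log2 signal (vertical axis) of Gkn1, Gkn2 and Gkn3 on each of the 3 before and 3 after arrays (horizontal axis), with the marker shape giving the replicate, crosses and bars the mean ± SD, and grey dashes the background level of that array. All after points of Gkn1 and Gkn2 stand above all their before points, and the 6 points of Gkn3 lie under the dashes; heights can be compared within a panel and not between panels, since each gene has its own probes.

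The count of members past the threshold of 0.05 on the adjusted p from limma (2 of 3, Gkn1 and Gkn2) stands beside 1.24% of all genes called as higher. For 2 of 3 gastrokines the after arrays all exceeded the before arrays, beside 11.8% of all genes. Since this contrast chose the members, nothing is read from either count.

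**Figure D2:**
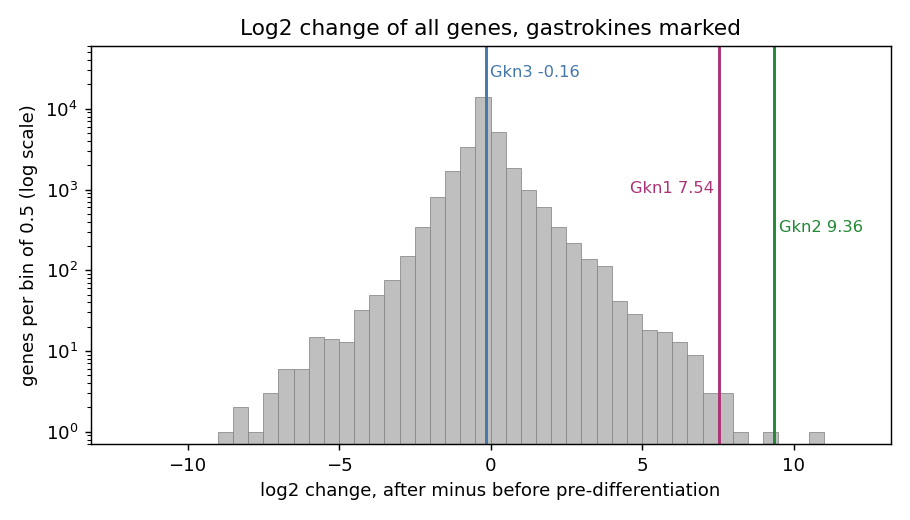
Histogram of the log2 change, after minus before, of the 30176 genes in bins of 0.5 (vertical axis: genes per bin, log scale), with lines at the 3 gastrokines. Gkn1 (7.54) and Gkn2 (9.36) lie in the sparse right tail and Gkn3 (-0.16) lies in the tallest bin.

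Arrays of the same group differed widely for Gkn1 and Gkn2. The 3 before arrays of Gkn2 spanned 4.21 log2 units (18.5-fold), which ranked 65 among the before ranges of all genes, whose median was 0.42 and 95th percentile 2.03. The before range of Gkn1 was 1.72 (3.30-fold). Among the after arrays the ranges were 3.92 (15.2-fold) for Gkn1 and 3.32 (10.0-fold) for Gkn2, where the median over all genes was 0.38 and the 95th percentile 2.06. In both genes the order of the arrays from dim to bright was the same, with before replicate 1 the dimmest of all and after replicate 3 the brightest. After replicate 1 reached 63.1% of the log2 distance between the before mean and the mean of the other after arrays for Gkn1, and 73.8% for Gkn2. On the linear scale, where bright arrays weigh more, it reached 9.51% and 14.0%.

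The size of both changes moved by more than 1.5 times with single arrays left out. Their direction could not reverse, since every after array stood above every before array. Leaving out each array in turn gave log2 changes between 6.64 (99.4-fold, without after replicate 3) and 8.60 (387-fold, without after replicate 1) for Gkn1. For Gkn2 they lay between 8.33 (322-fold, without before replicate 1) and 10.44 (1386-fold, without before replicate 3), with 10.26 (1225-fold) without after replicate 1 and 8.60 (387-fold) without after replicate 3. The range for Gkn3 was -0.22 to -0.10. In RNA of whole aggregates, more cells that express a gene and more RNA per cell cannot be told apart.

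Each gastrokine has 1 probe set, named TC0600002653.mm.1 for Gkn1, TC0600001007.mm.1 for Gkn2 and TC0600002654.mm.1 for Gkn3, and none of their rows carries another symbol. The genes follow each other on mouse chromosome 6 in the order Gkn1, Gkn2, Gkn3, with no other protein-coding gene that has a row of its own between them. Because Gkn1 and Gkn2 moved together and Gkn3 lay beside them without moving, the 250 bases before the annotated start of each gene are shown, from RefSeq on GRCm38.p6, written 5′ to 3′ on the strand of the gene. Gkn1 lies on the minus strand (chr6:87350916-87351165), Gkn2 on the plus strand (chr6:87373115-87373364) and Gkn3 on the minus strand (chr6:87388936-87389185). Capitals mark GATAA, the core of sites bound by GATA factors, or its reverse complement TTATC.
Gkn1: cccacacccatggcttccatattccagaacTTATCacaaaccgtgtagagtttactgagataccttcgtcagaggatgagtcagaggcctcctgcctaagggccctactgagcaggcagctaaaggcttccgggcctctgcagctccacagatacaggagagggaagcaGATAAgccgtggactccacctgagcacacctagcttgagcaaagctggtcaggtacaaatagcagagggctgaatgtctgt
Gkn2: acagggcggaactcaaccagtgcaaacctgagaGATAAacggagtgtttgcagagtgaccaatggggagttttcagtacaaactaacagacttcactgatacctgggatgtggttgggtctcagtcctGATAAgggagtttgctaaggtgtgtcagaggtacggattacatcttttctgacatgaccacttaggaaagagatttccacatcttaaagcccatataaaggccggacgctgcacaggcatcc
Gkn3: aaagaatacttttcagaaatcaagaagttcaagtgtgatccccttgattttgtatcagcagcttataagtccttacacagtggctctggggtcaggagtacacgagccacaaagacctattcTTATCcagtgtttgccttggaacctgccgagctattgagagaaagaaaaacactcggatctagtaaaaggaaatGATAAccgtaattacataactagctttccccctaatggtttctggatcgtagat

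All 3 windows hold 2 matches to GATAA on either strand, that of Gkn3, which was below background, included. Counted back from the start to the leftmost base of the match, they begin 220 and 81 bases before Gkn1, 217 and 122 before Gkn2, and 128 and 54 before Gkn3. Of 32851 windows of the same length, 22.6% hold at least 1 such match and 4.28% hold at least 2. The TATA box sequence TATAAA occurs in the window of Gkn2 alone, 29 bases before its start, and in 12.4% of all windows. ACAAT (Sox factors, 27.7% of windows), TGTTTAC (Fox factors, 3.17%) and GCCNNNGGC (Tfap2 factors, 13.7%) were searched on both strands and had no match in the 3 windows. No match overlapped another. A match to letters is a description of the sequence and not a site.

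The neighbours on the Gkn1 side moved in both directions. Those on the Gkn3 side, most of them at or near background, differed little between the groups. Of the 10 nearest protein-coding genes, 5 on each side, 1 was higher and 1 was lower by limma after adjustment over all rows (1.24% and 0.65% of all genes). Gfpt1, whose enzyme controls entry into the hexosamine pathway, rose by 2.92 on the log2 scale (standard error 0.37, adjusted p = 0.0416). Nfu1, an iron-sulfur cluster carrier of mitochondria, fell by 1.33 (standard error 0.18, adjusted p = 0.0454). Both calls were lost with trend and robust variances (limma adjusted p = 0.0536 and 0.0813), and that of Nfu1 also after quantile normalization (0.0557) and median centring (0.0518). Without after replicate 1 both passed (0.011 and 0.00559), and without each of the other 5 arrays neither did (0.0633 to 0.179 for Gfpt1 and 0.0718 to 0.185 for Nfu1). Antxr1, an anthrax toxin receptor and the gene next to Gkn1, had log2 signals of 5.25, 6.03 and 5.18 before and 6.19, 10.99 and 10.22 after. Its groups did not overlap, but its log2 change of 3.65 (standard error 1.25) did not pass (adjusted p = 0.157 from limma), and without after replicate 1 it was 5.12 (adjusted p = 0.00431). The endocytic kinase gene Aak1 had a log2 change of 1.88 (adjusted p = 0.0874 from limma), and D6Ertd527e one of -0.19. Beyond Gkn3 stood Bmp10, a ligand of the developing heart, with a log2 change of 0.13, Arhgap25 (0.11), the prokineticin receptor gene Prokr1 (0.21), the DNA repair gene Aplf (0.09) and 1810020O05Rik (-0.24), and none of these 5 passed. Bmp10, Arhgap25, 1810020O05Rik and, on the Gkn1 side, D6Ertd527e had both group means below background. Prokr1 was near that level (means 4.36 before and 4.57 after), and Aplf stood clearly above it (7.41 and 7.50). For genes at background a small difference does not show that the gene was unchanged.

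**Figure D3:**
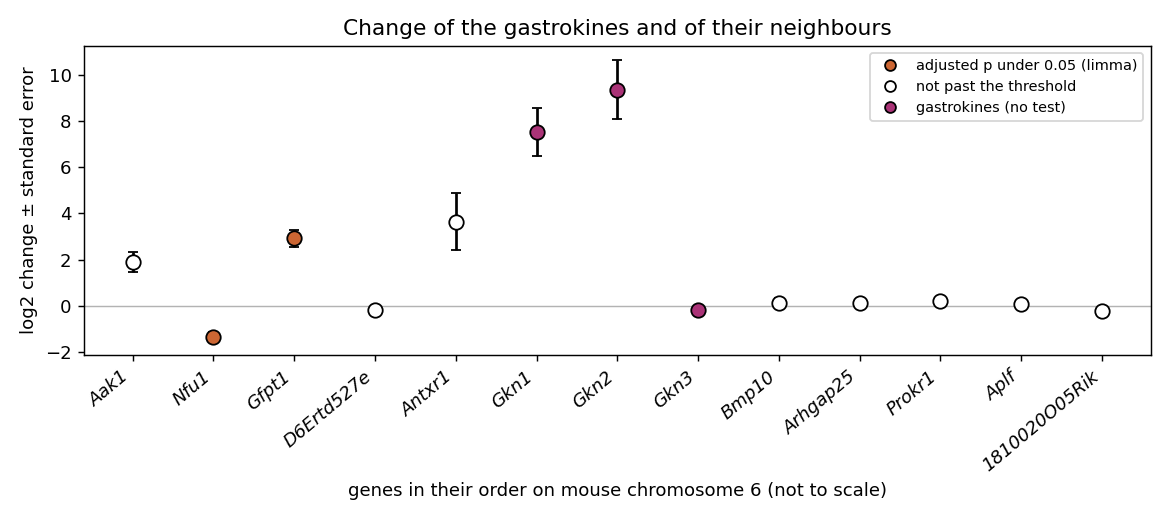
Log2 change, after minus before, with its standard error (vertical axis) for the gastrokines and the 5 genes on each side in their order on mouse chromosome 6 (horizontal axis, not to scale). Gkn3 and the 5 genes to its right lie between -0.24 and 0.21. Of these, Gkn3, Bmp10, Arhgap25 and 1810020O05Rik were below background in both groups, so no boundary of change is read from them.

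Among other genes known from the stomach, the markers of its mucous, gland and endocrine cells and the trefoil factors stayed mostly at or below background. Of 29 such genes measured (12 of surface mucous cells, 14 of gland and endocrine cells and 3 trefoil factors), 13 had a group mean above background. Of all 30176 genes, 19706 did. By limma 0 of the 29 passed as higher and 0 as lower, beside 1.24% and 0.65% of all genes. With such small shares, 0 calls in a list of 29 are not read as a result. Before adjustment of p, 2 were higher and 1 was lower at 0.05, against 10.9% and 19.7% of all genes. Their median log2 change was -0.07, beside -0.16 over all genes. Muc5ac, the mucin of gastric surface mucous cells, was below background with a log2 change of -0.11. The log2 change of Psca, a surface antigen made there, was 2.11 (adjusted p = 0.138 from limma), and Hdc, which makes histamine, had 1.12 (adjusted p = 0.0539 from limma). Without after replicate 1 the list had 4 genes past the threshold, all higher: Psca (2.89, adjusted p = 0.00269), Hdc (1.10, adjusted p = 0.046) and the trefoil factor genes Tff1 and Tff3. The list had 0 when any other single array was left out. Over all 30176 genes, 2353 were higher and 2257 lower without after replicate 1, the background for every list count given without that array.

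The trefoil factors are small peptides secreted with mucus, and TFF1 is the partner of GKN2. Tff1 had log2 signals of 3.67, 3.75 and 3.94 before and 3.46, 5.03 and 5.02 after. After replicate 1 was its dimmest array, and the log2 change of 0.72 (standard error 0.44) did not pass (adjusted p = 0.346 from limma), while without that array it was 1.24 (adjusted p = 0.0122). Tff3 had 4.25, 3.86 and 4.37 before and 4.25, 6.31 and 5.51 after, a difference of 1.20 on the log2 scale (standard error 0.52, adjusted p = 0.218 from limma), or 1.75 (adjusted p = 0.0321 from limma) without after replicate 1. Tff2 was below background in both groups, and its log2 difference of -0.08 changed sign when arrays were centred.

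Of 16 transcription factors of the stomach and foregut measured, 1 was higher, Gata4, at 4.71 (standard error 0.40, adjusted p = 0.0249 from limma), and 0 were lower, beside 1.24% and 0.65% of all genes. Before adjustment 7 of 16 were higher and 1 was lower, against 10.9% and 19.7% of all genes. The median log2 change was 0.41. Gata6 had a log2 change of 4.32 (adjusted p = 0.053 from limma). It is also on the parietal endoderm list, as Hnf4a is on the visceral and Foxa2 on the definitive endoderm list. Higher values of such factors are therefore not particular to the stomach. Without after replicate 1, 6 were higher and 1 was lower, the pluripotency factor gene Sox2 (-3.93, adjusted p = 0.00467 from limma). The count was 1, Gata4, without before replicate 2 and 0 without any other single array.

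The other genes of the BRICHOS family did not pass the main test, but the list is too short for its count to be read as a result. Of 7 measured, 0 were higher and 0 lower by limma, beside 1.24% and 0.65% of all genes. Before adjustment 3 were higher and 0 lower, against 10.9% and 19.7% of all genes, and the median log2 change was 0.18. The 3 that stood above background were the Itm2 genes, which encode membrane proteins whose BRICHOS part is shed. Itm2a had a log2 change of 3.81 (adjusted p = 0.192), Itm2b, known for inherited dementias in man, had 2.49 (adjusted p = 0.112), and Itm2c had 2.39 (standard error 0.42, adjusted p = 0.06). In Itm2b and Itm2c every after array exceeded every before array, beside 11.8% of all genes. Itm2c passed with rows above background only (limma adjusted p = 0.0437) and with brighter rows only (0.042). Without after replicate 1, Itm2c was at 2.86 (adjusted p = 0.00409 from limma). The lung surfactant gene Sftpc (-0.17), the tendon gene Tnmd (0.18), the cartilage gene Cnmd (0.04) and Bricd5 (-0.04) were below background in both groups.

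Parietal and visceral endoderm are yolk sac tissues that form beside the embryo. Of 17 parietal endoderm markers, 13 were higher and 0 lower by limma, beside 1.24% and 0.65% of all genes. Their median log2 change was 4.90. In 17 of 17 every after array exceeded every before array, beside 11.8% of all genes. Their mean log2 signal was 8.02 to 8.58 on before arrays and 12.52, 13.51 and 14.21 on after replicates 1, 2 and 3. The count was 17 without after replicate 1, 6 without before replicate 2 and 0 without any other single array. Of 15 visceral endoderm markers, 2 were higher, Afp and the hedgehog ligand gene Ihh, and 0 lower, beside the same 1.24% and 0.65%. Before adjustment, 17 of 17 parietal and 10 of 15 visceral markers were higher, against 10.9% of all genes. The median of the visceral markers was 2.83, and in 12 of 15 every after array exceeded every before array. The count of them called higher was 8 without after replicate 1 and 0 without any other single array. Their mean log2 signal was 6.47 to 6.95 before and 9.63, 10.96 and 9.75 after. Single markers did not all follow the mean of their list. In after replicates 1, 2 and 3 the visceral marker Afp had 11.60, 17.90 and 15.99, and the receptor gene Cubn 16.79, 11.66 and 10.70. Dab2, counted here on the parietal list, had 13.70, 12.86 and 13.13. Like all lists here, these were chosen with earlier results of these data known, so their counts are a description. Whether the gastrokine signal came from parietal or visceral endoderm cells was not tested.

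Markers of other cell types were counted in the same way, beside 1.24% of all genes called higher and 0.65% called lower. Without after replicate 1, 2353 of all 30176 genes were higher and 2257 lower. Of 11 definitive endoderm markers, 0 passed by limma, and without after replicate 1 the count was 4 higher (Foxa2, Sox17, Shh and Nepn) and 1 lower (Trh). Of 9 intestine markers, 0 passed, and without that array 2 were higher (Lgr5 and Fabp2). Before adjustment with all arrays, 4 definitive endoderm genes were higher and 2 lower, and 3 intestine genes were higher and 0 lower, against 10.9% and 19.7% of all genes. Of 11 arterial endothelium markers, 1 was higher, the netrin receptor gene Unc5b (2.31, adjusted p = 0.0306 from limma). The ephrin gene Efnb2 had a log2 change of 4.35 (adjusted p = 0.122 from limma), and Hey1, a Notch target, one of 1.86 (adjusted p = 0.055), while Bmx, Gja4 and Gja5 were at background, as was Gkn3. Without after replicate 1, 3 arterial markers were higher (Hey1, Mgp and Unc5b) and 1 was lower (Vegfc). Of 8 markers of endothelium in general, 1 was higher, the cadherin gene Cdh5 (6.56, adjusted p = 0.0495 from limma), a call lost with trend and robust variances (adjusted p = 0.0528). Without after replicate 1, 3 were higher (Cdh5, Kdr and Tek) and 1 was lower (Pecam1). Of 8 trophoblast markers, 0 passed (5 higher and 1 lower before adjustment), and without after replicate 1, 3 were higher (Hand1, Krt7 and Tpbpa). None of these 5 lists had a call when any other single array was left out.

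After replicate 1, in which Gkn1 and Gkn2 were dimmest of the after arrays, was also the after array with the most signal of pluripotency genes. The mean log2 signal of 15 pluripotency genes was 11.97 to 12.50 before, 11.25 in after replicate 1, and 6.11 and 6.63 in after replicates 2 and 3. Of these genes, 0 were higher and 1 was lower by limma, the TGF-beta family gene Gdf3, beside 1.24% and 0.65% of all genes. The count lower was 11 without after replicate 1 and 0 without any other single array. Before adjustment 0 of 15 were higher and 10 were lower, against 10.9% and 19.7% of all genes. Their median log2 change was -5.12. Groups did not overlap in 8 of the 15, with after the dimmer, beside 8514 of all 30176 genes. Array medians lay between 4.17 and 4.47. Over all genes, 373 were higher and 196 lower by limma, against 2353 and 2257 without after replicate 1, 101 and 67 without before replicate 2, and 0 and 0 without any other single array.

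Likeness of profile was measured as the root mean square (RMS) difference of log2 signals over the 6 arrays after each gene was centred on its own mean. The genes nearest to Gkn1 were Krt18, a keratin of simple epithelia (RMS difference 0.72, log2 change 8.29), the tissue factor gene F3 (0.74, 6.56), the membrane protein gene Crim1 (0.78, 6.98), the prostaglandin transporter gene Slco2a1 (0.80, 6.12) and the matrix protease gene Adamts9 (0.83, 6.40). Krt18 and F3 are on the list of parietal endoderm markers as well. Since Gkn1 and Gkn2 were picked for a large increase on these arrays, genes near them by this measure have one too. Nothing is therefore read from the lists to which the near genes belong. Gkn2 came at rank 20 in that order, with 1.17. The gene nearest to Gkn2 was Gkn1, at the same 1.17. Krt18 (1.26, log2 change 8.29), the tight junction gene Cldn6 (1.41, 7.98), the thyroxine carrier gene Ttr (1.63, 7.11) and the calcium-binding protein gene S100g (1.69, 6.37) came next. Gkn2 was thus farther from its nearest gene than Gkn1 was from each of its first 5, with more spread of its before arrays.

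**Figure D4:**
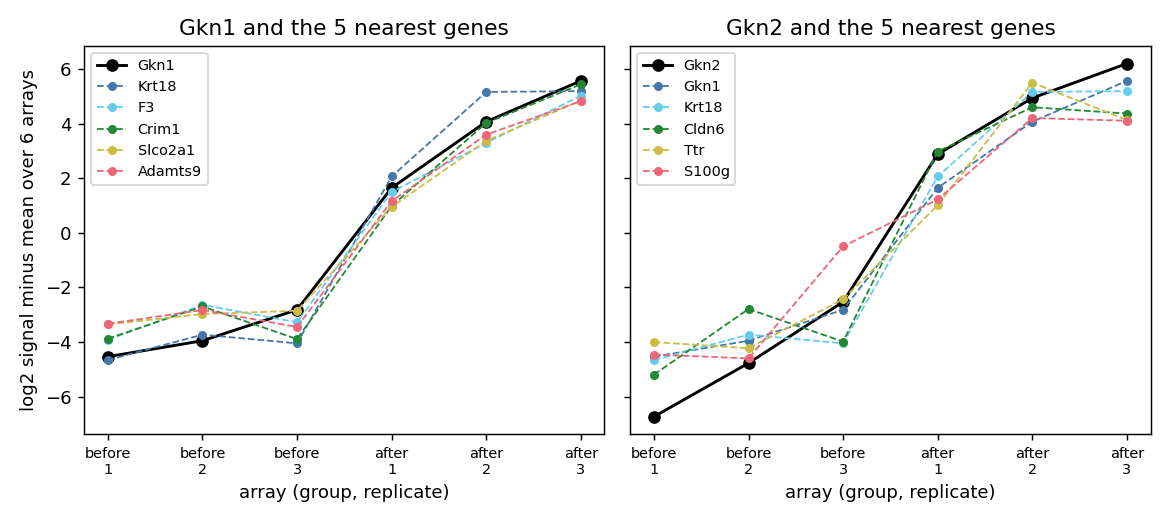
Log2 signal minus the mean over 6 arrays (vertical axis) on each array (horizontal axis) for Gkn1 (left) and Gkn2 (right), each with the 5 genes of smallest RMS difference, where lines only join the points of a gene and replicates have no order. The genes around Gkn1 follow it within 0.83 RMS, while before replicate 1 sets Gkn2 apart from the genes around it.

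For Gkn3 the nearest profiles were flat ones. Leaving out 2 unnamed loci among the first 5, they were the blood cell repressor gene Gfi1b and the vomeronasal receptor gene Vmn1r64 (RMS difference 0.02 each), and Zbtb45, Ly6m and the receptor pseudogene Vmn2r-ps38 (0.03 each), with log2 differences between -0.20 and -0.13.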

How the data were processed

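Arrays of 3 before and 3 after samples were used as the log2 signals deposited by the authors, who made them with Transcriptome Analysis Console. Not given in the sources used here were its version, its summarization and any correction for background. No further normalization was applied. The two-sided test was that of limma 3.58.1 (R 4.3.3; lmFit, then eBayes), adjusted by Benjamini-Hochberg over 72657 of 72688 rows at a threshold of 0.05. The 31 rows left out start with AFFX; 6701 other control rows stayed in. Of the rows, 30638 have 1 symbol, 2176 several and 33142 none, and the brightest row stands for a gene. Genes named are the gastrokines, up to 3 members past the threshold per list and direction, all trefoil, BRICHOS and neighbouring genes, and the 5 most alike profiles (unnamed and predicted loci left out). Psca, Hdc, Muc5ac, Gata6, Cubn, Dab2, Efnb2, Hey1, Bmx, Gja4, Gja5 and genes called only without after replicate 1 were named after their values were seen. Members and lists were chosen with earlier results of these data known. The fit was checked on simulated arrays. Precision is limited by the number of arrays, and p-values measure only the spread between these samples. As alternatives, each array was left out in turn, control rows were dropped, the replicate number entered as a block, dim rows were filtered, variances were given a trend and made robust, values were centred on array medians or quantile normalized, and Student's test was run. Protein sequences were not analysed here.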

Additional observations from a re-analysis of the deposited data

How the results depend on the processing

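Gkn1 and Gkn2 kept the direction of their change under all alternatives run. For left-out arrays this was fixed in advance, since their groups did not overlap. The range over single left-out arrays was 6.64 to 8.60 for Gkn1 and 8.33 to 10.44 for Gkn2 (log2). Gkn3 moved from -0.16 to -0.0431 after quantile normalization, to 0.0196 after median centring, and from -0.22 to -0.10 over left-out arrays. The number of all genes called higher (373) was 645 with rows above background only, 674 with the brighter rows only, 138 with trend and robust variances, 2320 with Student's test unadjusted and 0 adjusted, and 0 to 2353 with 1 array left out. The number called lower (196) was in the same settings 419, 448, 30, 5546, 0 and 0 to 2257, and 378 without control rows. Other stomach genes higher (1) were 4 with quantile normalization, 2 with median centring, 6 with rows above background, 6 with brighter rows, 8 with Student's test unadjusted and 0 adjusted, 3 without control rows, and 0 to 10 with 1 array left out, and those lower (0) were 7 with Student's test unadjusted and 0 to 1 with 1 array left out. BRICHOS genes higher (0) were 1 with rows above background, 1 with brighter rows, 2 with Student's test unadjusted and 0 to 1 with 1 array left out. Neighbours higher (1) were 0 with trend and robust variances, 2 with Student's test unadjusted and 0 adjusted, and 0 to 3 with 1 array left out. Neighbours lower (1) were 0 with quantile normalization, median centring or trend and robust variances, 2 with Student's test unadjusted and 0 adjusted, and 0 to 1 with 1 array left out. Small differences changed sign: Tff2 was 0.0883 after quantile normalization or 0.11 after centring, Sftpc 0.0112 with median centring, Bricd5 0.14 with each of these and -0.12 to 0.014 over left-out arrays, Cnmd -0.0244 to 0.15 and Aplf -0.0227 to 0.15 over left-out arrays. The cause of these shifts was not tested.

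The labels give both groups replicate numbers 1 to 3, but the deviations of arrays sharing a number correlated at -0.034, 0.145 and -0.082, and 2 of 6 arrays correlated best with their own number, so the arrays were taken to share only a number. With the replicate block 0 genes were higher and 0 lower, as were 0 stomach, BRICHOS and neighbouring genes in either direction. The standard errors of the log2 change with the block were 0.50 for Gkn1, 0.26 for Gkn2 and 0.15 for Gkn3, against 1.03, 1.28 and 0.12 without it. Gkn1 and Gkn2 rose from replicate 1 to replicate 3 in both groups. The correlations over all rows cannot tell whether the arrays were paired for these genes. With no detection call and 3 arrays per group, signals near the background level, Gkn3 and most markers of gastric cells among them, cannot be ordered.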
